A study of Mus musculus with 8 samples.

Results

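The transporters described here are the amino acid carriers of the solute carrier families Slc1, Slc3, Slc7, Slc36, Slc38 and Slc43. They were matched by gene symbol, and every gene of these families in the table of 47729 genes was included, which gave 42 genes. The unit RPM used for levels is the number of reads per M gene reads of a library. Of the 42 genes, 26 reached 1 RPM in at least 2 of the 8 libraries and were tested, while 16 stayed below this level. By role, the tested genes were 3 of 7 in Slc1, 1 of 2 in Slc3, 4 of 5 cationic carriers and 5 of 10 light chains in Slc7, 2 of 4 in Slc36, 8 of 11 in Slc38 and 3 of 3 in Slc43.

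RNA was sequenced from grafted mouse tumors of 4 groups. LLC KO and LLC WT were tumors of Lewis lung carcinoma (LLC) cells, a mouse lung tumor line, collected from *Ccrl2* KO mice and from WT mice. B16 KO and B16 WT were tumors of B16-F0 melanoma cells from *Ccrl2* KO and WT mice. All hosts were of the C57BL/6J strain and between 6 and 12 weeks of age, and the cells were injected under the skin of the back. The grafted cells carried an intact *Ccrl2* in all 4 groups, and only the hosts lacked the gene. The labels give day 5 after the graft for all groups, whereas figure legends of the study give day 3 for B16, so that tumor type and time cannot be fully told apart. There were 2 libraries per group, made from pools of 3 tumors each. The p-values therefore measure the spread between pools, and the sources used here do not state how the mice were divided among them.

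Amino acids cross membranes through carriers that exchange one amino acid for another, couple the uptake to sodium or protons, or let amino acids pass down their gradient. Several Slc7 proteins are light chains that reach the cell surface only when joined to a heavy chain, *Slc3a2* (also known as CD98) or *Slc3a1*. In tumors these carriers are known for supplying glutamine, leucine, arginine and cystine, for signaling amino acid levels to the kinase complex mTORC1, and for induction by the transcription factor ATF4 when amino acids run short.

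*Ccrl2*, the gene deleted in the hosts, was read at 11.45 and 5.15 RPM in LLC KO and at 9.4 and 5.25 RPM in LLC WT, and at 3.55 and 3.1 RPM in B16 KO and 4.25 and 3.8 RPM in B16 WT. The grafted cells can contribute these reads. Estimated depth was 17.6 to 30.84 M reads on genes, lowest in the LLC KO pools, and 3 reads correspond to 0.0973 to 0.1705 RPM, as counting error only. Melanocyte markers (8 of 8 genes found) summed to 24.55 to 27.55 RPM in LLC and to 15097 to 18594 RPM in B16. Lung epithelial markers (4 genes) summed to at most 0.3 RPM in LLC tumors, with *Nkx2-1* at 0 in all libraries, so that the lung origin of LLC is not seen in its markers. Epithelial markers (5 genes) summed to 278.9 to 472.55 RPM in LLC and 3.1 to 5.15 RPM in B16. In LLC this sum was mostly *Krt8* (152.4 to 227.2 RPM) and *Krt18* (110 to 232.2 RPM), with *Krt19* at 5.2 to 15.35 RPM. *Cdh1* was lower in LLC (0.6 to 1.4 RPM) than in B16 (1.55 to 3.05 RPM), and *Epcam* was at most 0.25 RPM in all libraries. The LLC KO pools alone held Y-linked transcripts (*Ddx3y* at 31 and 34.9 RPM, against 0 in LLC WT and in both B16 groups), so that host genotype and these transcripts cannot be told apart in LLC, where *Xist* was at 632 and 709.7 RPM in LLC KO and at 323.1 and 295.8 RPM in LLC WT. B16 WT pool 1 held skeletal muscle transcripts (649.9 RPM over 6 genes, against 1.7 to 3.1 RPM in the other 7 libraries). Fibroblast markers (5 genes) summed to 19039 and 17821 RPM in LLC KO, against 18554 and 35520 RPM in LLC WT, and macrophage markers (5 genes) to 2850 and 3486 RPM in LLC KO, against 3817 and 6714 RPM in LLC WT. Members of these lists differed in direction. *Dcn* (1663 and 1634 RPM in LLC KO, 850.4 and 1287 RPM in LLC WT) and *Mrc1* (671.7 and 741.6 RPM, against 475.9 and 424.6 RPM) were higher in LLC KO. *Col1a1*, *Csf1r* and *Lyz2* were lower in both LLC KO pools than in both LLC WT pools. Endothelial markers (6 genes) summed to 16.55 and 60.85 RPM in LLC KO and to 207.95 and 184.8 RPM in LLC WT, and T cell markers (7 genes) to 0.95 and 2.7 RPM in LLC KO and to 13.2 and 10.05 RPM in LLC WT. *Cldn5*, *Cd3e*, *Cd3d*, *Cd8a* and *Trac* were at 0 in LLC KO pool 1. In bulk tumor RNA, fewer cells of a type and less RNA per cell cannot be told apart, and the part of these cells in the results below was not tested.

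Promoter sequences show what the carriers that differed between LLC tumors of the 2 hosts have at their start sites. RefSeq windows of 300 bases (GRCm38.p6), from 250 bases before to 50 bases after a start, were matched for 31 of the 42 genes, as 42 windows. Each window was searched on both strands for TGATGNAA (an amino acid response element bound by ATF4), ACGTG and GCGTG (cores of hypoxia response elements) and TGACNNNGC (an antioxidant response element). Of the 13 carriers called between LLC KO and LLC WT, 9 had a window and 7 held at least 1 of these motifs. How many of all windows hold at least 1 of them was not counted, so that the 7 cannot be set against a background. Each motif alone was in 4.0% to 32.4% of all windows. The 4 windows shown belong to *Slc1a4* and *Slc38a2*, which were higher in LLC KO, and to *Slc36a1* and *Slc43a1*, which were lower. They lie at chr11:20332664-20332963, minus strand (*Slc1a4*), chr15:96699679-96699978, minus strand (*Slc38a2*), chr11:55204090-55204389, plus strand (*Slc36a1*) and chr2:84840073-84840372, plus strand (*Slc43a1*), and are written in the direction of the gene. Capitals mark the motifs found.
Slc1a4: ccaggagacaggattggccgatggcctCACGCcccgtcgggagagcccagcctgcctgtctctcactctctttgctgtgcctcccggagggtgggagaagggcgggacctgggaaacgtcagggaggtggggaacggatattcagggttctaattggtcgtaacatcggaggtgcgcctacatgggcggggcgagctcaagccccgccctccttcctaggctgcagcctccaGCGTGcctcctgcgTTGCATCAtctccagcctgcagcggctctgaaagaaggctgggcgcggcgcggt
Slc38a2: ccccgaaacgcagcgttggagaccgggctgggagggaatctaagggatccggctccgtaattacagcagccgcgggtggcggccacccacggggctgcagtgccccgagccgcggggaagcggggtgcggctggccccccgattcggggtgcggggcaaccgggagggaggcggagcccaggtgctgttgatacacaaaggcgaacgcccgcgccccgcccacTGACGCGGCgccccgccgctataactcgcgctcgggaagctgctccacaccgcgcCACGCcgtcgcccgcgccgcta
Slc36a1: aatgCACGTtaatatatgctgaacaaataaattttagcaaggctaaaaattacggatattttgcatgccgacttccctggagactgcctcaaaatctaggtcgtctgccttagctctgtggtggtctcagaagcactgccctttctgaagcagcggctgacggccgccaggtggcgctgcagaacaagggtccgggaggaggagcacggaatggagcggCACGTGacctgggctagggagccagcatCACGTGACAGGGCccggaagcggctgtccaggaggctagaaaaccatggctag
Slc43a1: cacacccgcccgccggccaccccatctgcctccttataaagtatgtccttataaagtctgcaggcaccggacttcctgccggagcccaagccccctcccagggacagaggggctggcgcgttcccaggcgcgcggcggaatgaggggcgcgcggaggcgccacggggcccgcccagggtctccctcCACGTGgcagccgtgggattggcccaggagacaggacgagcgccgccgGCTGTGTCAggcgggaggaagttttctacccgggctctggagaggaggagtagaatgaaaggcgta
Positions were counted from the start site as 1, with the base before it as -1. The *Slc1a4* window held the amino acid response element on its reverse strand, at -4 to 4, and GCGTG at -223 to -219 and at -18 to -14. The *Slc38a2* window held TGACNNNGC at -27 to -19 and GCGTG at 29 to 33. In *Slc36a1*, ACGTG was found on the reverse strand at -246 to -242, and on both strands at 2 places, -31 to -26 and -3 to 3. At each of these 2 places the 2 overlapping matches form the palindrome CACGTG, and the second palindrome runs into TGACNNNGC at 2 to 10. *Slc43a1* held 1 such palindrome, at -64 to -59, and TGACNNNGC at -16 to -8. TGATGNAA was present in 4 of the 42 windows of the transporters (9.5%; *Slc1a4*, *Slc7a7* and *Slc7a11*) and in 4.0% of all 32817 windows. ACGTG was in 35.7% of the windows of the transporters against 19.6% of all windows, GCGTG in 33.3% against 32.4%, TGACNNNGC in 14.3% against 12.4%, and CACGTG, looked for after it had been seen, in 16.7% against 7.1%. Of the 13 transporters with ACGTG, *Slc7a6*, *Slc36a1* and *Slc43a1* were called between LLC KO and LLC WT, all as lower. *Slc1a6*, *Slc1a7*, *Slc7a14*, *Slc7a15* and *Slc38a5* were below the test level and could not be called. Beside this, 15.1% of all genes tested were higher and 23.1% lower in LLC KO. Of the 7 with CACGTG, *Slc36a1* and *Slc43a1* were called, and *Slc1a6*, *Slc1a7*, *Slc7a14* and *Slc38a5* were below the test level. These matches are a description of letters, and binding was not measured.

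The 26 tested carriers spanned a wide range of levels, and the same few led in each tumor. Per kb of exon, the heavy chain *Slc3a2* was first in LLC, with a mean of 52.3 RPM per kb in LLC KO and 54.0 in LLC WT. The next in LLC KO were *Slc38a2* (29.1 RPM per kb), *Slc38a10* (28.7) and *Slc7a5* (23.4), and in LLC WT *Slc7a5* (38.4), *Slc38a10* (34.6) and *Slc1a5* (33.7). In B16, *Slc7a5* was first, with 98.7 RPM per kb in B16 KO and 88.3 in B16 WT, followed by *Slc3a2* (82.1 in B16 KO and 81.5 in B16 WT) and *Slc38a10* (54.9 in B16 KO and 41.6 in B16 WT). At the low end *Slc1a3*, a glial glutamate carrier, *Slc7a3*, a cationic carrier known from brain, and the glutamine carrier *Slc38a3* stayed at or below 2.45 RPM in all libraries.

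The 16 genes below the test level included carriers known from brain, kidney and gut. They were the glutamate carriers *Slc1a1*, *Slc1a2*, *Slc1a6* and *Slc1a7*, the heavy chain *Slc3a1* with its kidney partner *Slc7a9*, and *Slc7a10*, *Slc7a12*, *Slc7a13*, *Slc7a14*, *Slc7a15*, *Slc36a2*, *Slc36a3*, *Slc38a5*, *Slc38a8* and *Slc38a11*. Their highest value in any library was 0.9 RPM, in *Slc36a2*. *Slc7a12* was at 0 in all 8 libraries, which allows up to 0.1705 RPM in the shallowest. *Slc7a9* was at 0 in all 4 LLC libraries and at 0.3 to 0.55 RPM in B16.

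In LLC tumors, 13 of the 26 carriers differed between KO and WT hosts: 4 were higher and 9 were lower in LLC KO. The carriers of leucine and other large neutral amino acids (*Slc7a5*, *Slc7a8*, *Slc43a1* and *Slc43a2*), the glutamine exchanger *Slc1a5* and the lysosomal *Slc36a1* fell, whereas *Slc1a4*, *Slc7a1*, *Slc38a2* and *Slc38a6* rose. Exons of *Slc7a2*, *Slc43a2* and *Slc38a10* share 7.0%, 9.2% and 5.7% of their bases with a gene on the other strand, whose reads cannot be told apart here. Of the other tested carriers, the same holds for 13.3% of *Slc7a4*, 7.0% of *Slc7a7* and 1.1% of *Slc38a9*. Over all 14706 genes tested, 15.1% were higher and 23.1% lower in LLC KO (limma, adjusted p under 0.05), against 15.4% and 34.6% of the carriers. The median log2 fold change was -0.22 over the carriers and -0.09 over all genes, and 19 of the 26 carriers were below 0. The 42 transporters together summed to 1476 and 1486 RPM in LLC KO, against 1681 and 1657 RPM in LLC WT. The number of carriers called was 7 without LLC KO pool 1 and 6 without LLC KO pool 2. With other scalings of the libraries, the share of higher calls over all genes was 54.5% (trimmed mean of M values) or 53.8% (median of ratios) in place of 39.6%, and the carriers counted 4 higher with 8 or 7 lower. None of the 13 called carriers turned its sign under any alternative tried.

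**Figure D1:**
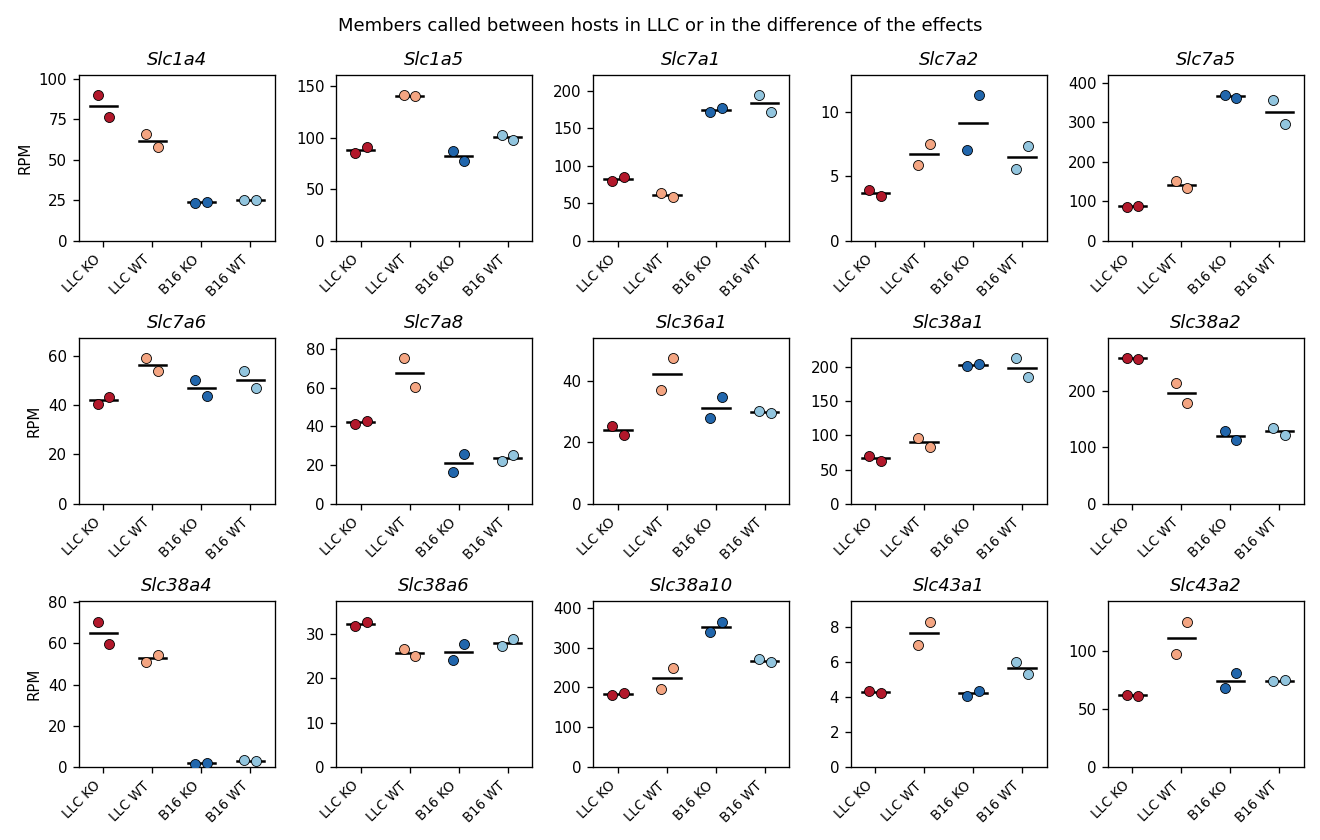
Level of the 15 carriers that were called between hosts in LLC or in the difference of the host effects, in RPM from 0 on the vertical axis, for LLC KO, LLC WT, B16 KO and B16 WT. Points are pools of 3 tumors and lines are means of 2 pools. The LLC KO points of *Slc1a5*, *Slc7a5*, *Slc36a1* and *Slc43a2* lie below both LLC WT points, and those of *Slc38a2* lie above them.

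Among the Slc1 carriers, the 2 exchangers of small neutral amino acids moved in opposite directions in LLC. *Slc1a5* (ASCT2), which brings glutamine into the cell in exchange for other neutral amino acids, was at 84.95 and 91.15 RPM in LLC KO and at 141.2 and 140.15 RPM in LLC WT. It was therefore 0.626 of its level in WT hosts, with a log2 fold change of -0.67 (standard error, SE, 0.08; adjusted p = 0.00152 from limma), and it stayed called without any single library (adjusted p of at most 0.0154). *Slc1a4* (ASCT1), known for serine, alanine and cysteine, was at 90.05 and 76.7 RPM in LLC KO and at 65.95 and 57.8 RPM in LLC WT. Its pools did not overlap, and its log2 fold change was 0.43 (SE 0.10, adjusted p = 0.0161). The *Slc1a4* call was lost without LLC KO pool 1 (0.31, adjusted p = 0.113) and without LLC WT pool 2 (0.33, adjusted p = 0.0565). Per kb, the ratio of *Slc1a5* to *Slc1a4* was 0.888 and 1.12 in LLC KO, against 2.01 and 2.28 in LLC WT. *Slc1a3* had a log2 fold change of -0.88 with a 95% confidence interval of -1.93 to 0.18 (adjusted p = 0.160).

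The cationic carriers of Slc7, which take up arginine, lysine and ornithine, also split. *Slc7a1* (CAT1), the widely expressed member, was at 79.6 and 85.05 RPM in LLC KO and at 63.7 and 58.0 RPM in LLC WT, a log2 fold change of 0.43 (SE 0.09, adjusted p = 0.00757 from limma). Both KO pools lay above both WT pools, and of the single libraries left out only LLC KO pool 2 ended the call (adjusted p = 0.0518). *Slc7a2* (CAT2), known from liver and activated macrophages, was at 3.95 and 3.45 RPM in LLC KO and at 5.9 and 7.5 RPM in LLC WT. Its log2 fold change of -0.77 (SE 0.25, adjusted p = 0.0414) was not secure, since leaving out either LLC KO pool (adjusted p = 0.100 and 0.154), LLC WT pool 2 (0.150) or either B16 WT pool (0.0584 and 0.0589) ended the call, as did both other scalings (0.0604 and 0.0664). Without a filter on low values, the calls of *Slc7a2* (0.101), *Slc7a8* (0.0944), *Slc38a2* (0.0608) and *Slc38a6* (0.0522) were lost. *Slc7a3* and *Slc7a4* differed by -0.13 and -0.02 on the log2 scale and were not called.

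The heavy chain of the heteromeric carriers did not differ detectably between hosts in LLC, while 3 of the 5 tested light chains fell. The count of light chains stands beside 23.1% lower and 15.1% higher among all genes tested. *Slc3a2* was at 182.9 and 186.0 RPM in LLC KO and at 216.0 and 165.3 RPM in LLC WT, and the KO values lay between the WT values (log2 fold change -0.03, 95% confidence interval -0.31 to 0.24, adjusted p = 0.837 from limma). *Slc7a5* (LAT1), the main tumor carrier of leucine and other large neutral amino acids, was at 84.8 and 88.75 RPM in LLC KO and at 151.5 and 133.3 RPM in LLC WT. It was 0.609 of its level in WT hosts, with a log2 fold change of -0.71 (SE 0.10, adjusted p = 0.00276), and it stayed called without any single library (adjusted p of at most 0.0239). *Slc7a8* (LAT2), which carries a wider range of neutral amino acids, was at 41.35 and 42.8 RPM in LLC KO and at 75.05 and 60.25 RPM in LLC WT, a log2 fold change of -0.67 (SE 0.20, adjusted p = 0.0345). *Slc7a6*, which exchanges cationic for neutral amino acids with sodium, was at 40.6 and 43.3 RPM in LLC KO and at 58.9 and 53.9 RPM in LLC WT, a log2 fold change of -0.42 (SE 0.10, adjusted p = 0.0168). Both calls were lost without LLC KO pool 1 (*Slc7a8* 0.128, *Slc7a6* 0.0981), LLC KO pool 2 (0.100 and 0.0518) or LLC WT pool 1 (0.129 and 0.0527), and that of *Slc7a8* also without either B16 WT pool (0.0578 and 0.0577) or with scaling by the median of ratios (0.0537). *Slc7a7*, the light chain of system y+L in macrophages and kidney, and *Slc7a11* (xCT), the cystine and glutamate exchanger, were not called (-0.30, adjusted p = 0.180, and 0.06, adjusted p = 0.890).

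Set against their heavy chain, the sum of the light chains was lower in LLC KO than in any other group, with *Slc7a5* as its largest part. Per kb of exon, the 5 tested light chains together came to 0.868 and 0.898 of *Slc3a2* in LLC KO, against 1.22 and 1.41 in LLC WT, and to 1.42 and 1.45 in B16 KO, against 1.39 and 1.28 in B16 WT. *Slc7a5* made up 50.8% and 50.6% of the light chain sum in LLC KO and 54.6% and 54.5% in LLC WT. It made up 84.4% and 83.2% in B16 KO and 82.3% and 79.5% in B16 WT. The lower ratio held for *Slc7a5* against all other groups, while the mean ratios of *Slc7a6*, *Slc7a7* and *Slc7a8* to *Slc3a2* in LLC KO (0.176, 0.0721 and 0.161) were below those in LLC WT (0.231, 0.0898 and 0.251) and above those in B16 KO (0.125, 0.0450 and 0.0513). That of *Slc7a11* was 0.0266 in LLC KO and 0.0253 in LLC WT. These ratios were formed after the values had been seen and are given without a test.

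**Figure D2:**
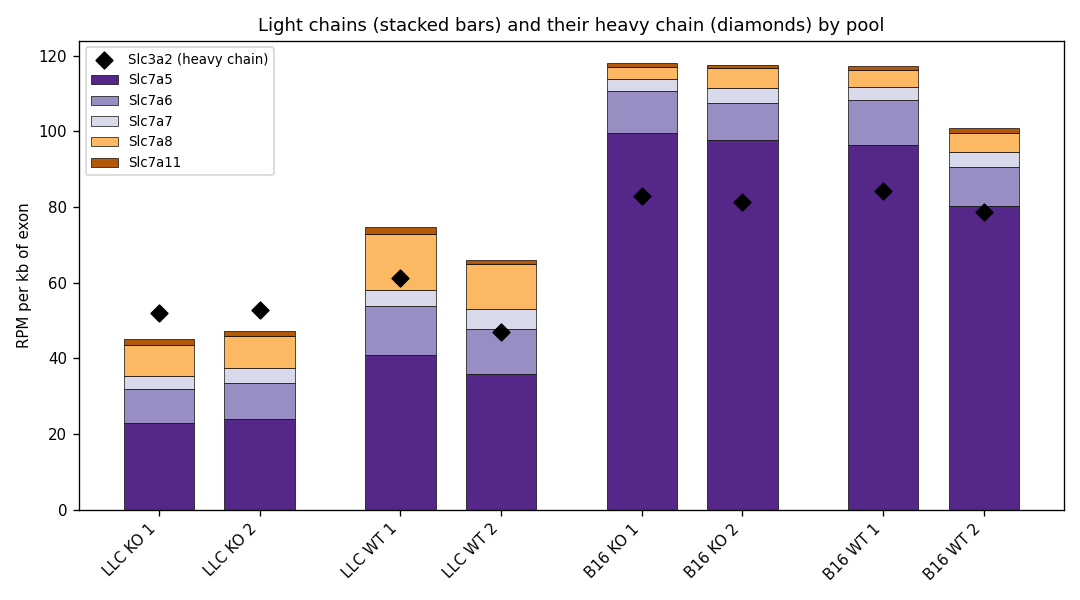
Stacked bars give the 5 tested light chains and diamonds the heavy chain *Slc3a2* in each of the 8 pools, in RPM per kb of exon on the vertical axis. The bars of the LLC KO pools end below their diamonds, at 0.868 and 0.898 of *Slc3a2*, and all other bars end above theirs.

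The proton-coupled *Slc36a1* (PAT1), which exports small amino acids from lysosomes and is linked to mTORC1, fell in LLC KO. It was at 25.25 and 22.55 RPM in LLC KO and at 37.15 and 47.35 RPM in LLC WT, a log2 fold change of -0.80 (SE 0.15, adjusted p = 0.00627 from limma). The pools did not overlap, and it stayed called without any single library (adjusted p of at most 0.0382). Its relative *Slc36a4* was at 29.75 and 27.1 RPM in LLC KO and at 24.5 and 34.75 RPM in LLC WT, with overlapping values (-0.04, adjusted p = 0.871).

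In the Slc38 family of sodium-coupled neutral amino acid carriers, 2 of 8 tested members rose, 1 fell and 5 were not called. These counts stand beside 15.1% higher and 23.1% lower among all genes tested. *Slc38a2* (SNAT2), the system A carrier known to be induced when amino acids are lacking, was at 257.15 and 256.8 RPM in LLC KO and 213.05 and 178.6 RPM in LLC WT. Its log2 fold change was 0.40 (SE 0.11, adjusted p = 0.0227 from limma). *Slc38a1* (SNAT1), the glutamine carrier of the same system, was at 70.65 and 62.0 RPM in LLC KO and at 96.7 and 83.05 RPM in LLC WT, a log2 fold change of -0.43 (SE 0.11, adjusted p = 0.0167). The ratio of *Slc38a2* to *Slc38a1* per kb was thus 7.10 and 8.08 in LLC KO, against 4.30 and 4.19 in LLC WT. *Slc38a6*, a less studied member, was at 31.8 and 32.75 RPM in LLC KO and at 26.6 and 24.95 RPM in LLC WT, a log2 fold change of 0.32 (SE 0.10, adjusted p = 0.0369). The *Slc38a1* call was lost without LLC KO pool 2 (adjusted p = 0.0996) or LLC WT pool 1 (0.0523). Leaving out LLC KO pool 1, LLC KO pool 2 or LLC WT pool 2 ended those of *Slc38a2* (0.0973, 0.0875 and 0.0743) and *Slc38a6* (0.117, 0.148 and 0.103), and the *Slc38a6* call was also lost without either B16 WT pool (0.0632 and 0.0635). With LLC fitted alone, the calls of *Slc1a4* (0.0581), *Slc38a1* (0.0532), *Slc38a2* (0.0552) and *Slc38a6* (0.0757) were lost. The lysosomal members *Slc38a7* and *Slc38a9*, the second of which reports arginine to mTORC1, had log2 fold changes of -0.20 and -0.24 and were not called (adjusted p = 0.149 and 0.144).

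The Slc43 facilitators *Slc43a1* (LAT3) and *Slc43a2* (LAT4), which let branched chain amino acids and phenylalanine pass, both fell in LLC KO. *Slc43a2* was at 62.05 and 60.95 RPM in LLC KO and at 97.5 and 125.0 RPM in LLC WT. Its log2 fold change of -0.84 (SE 0.13, adjusted p = 0.00314 from limma) was the largest among the called carriers, and 0.553 of the level in WT hosts was left. *Slc43a1* was at 4.35 and 4.25 RPM in LLC KO and at 6.95 and 8.3 RPM in LLC WT, a log2 fold change of -0.75 (SE 0.15, adjusted p = 0.00855). Both stayed called without any single library (adjusted p of at most 0.0223 and 0.0432). LLC WT pool 2 had the highest sums of fibroblast and macrophage markers of the LLC pools, though not the highest *Dcn* or *Mrc1*. Without it, the log2 fold changes were -0.66 for *Slc43a2*, -0.63 for *Slc43a1* and -0.63 for *Slc36a1*. *Slc43a3*, known to carry purine bases rather than amino acids, was at 56.95 and 72.6 RPM in LLC KO and at 58.15 and 85.8 RPM in LLC WT, with overlapping values (-0.13, adjusted p = 0.759).

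In B16 tumors, no carrier was called between KO and WT hosts. No gene at all was called in this comparison (0% of 14706 higher and 0% lower by limma), with 1442 genes at an unadjusted p under 0.05. Among the carriers, this was so for 4 of 26, and *Slc38a4* had the lowest adjusted p, 0.393. *Slc38a4* (SNAT4) was at 1.65 and 2.15 RPM in B16 KO and at 3.25 and 2.9 RPM in B16 WT (log2 fold change -0.58, 95% confidence interval -0.93 to -0.23). *Slc1a5* was at 87.15 and 77.2 RPM in B16 KO and at 102.2 and 98.15 RPM in B16 WT (-0.29, interval -0.47 to -0.10, adjusted p = 0.426). *Slc38a10* was at 339.2 and 365.2 RPM in B16 KO and at 271.05 and 263.35 RPM in B16 WT (0.40, interval 0.14 to 0.66, adjusted p = 0.433), and *Slc43a1* was at 4.05 and 4.35 RPM in B16 KO and at 6.0 and 5.3 RPM in B16 WT (-0.39, interval -0.74 to -0.03, adjusted p = 0.493). The intervals of the other carriers were centered between -0.60 (*Slc43a3*) and 0.45 (*Slc7a2*), and that of *Slc7a2* reached from -0.12 to 1.02.

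**Figure D3:**
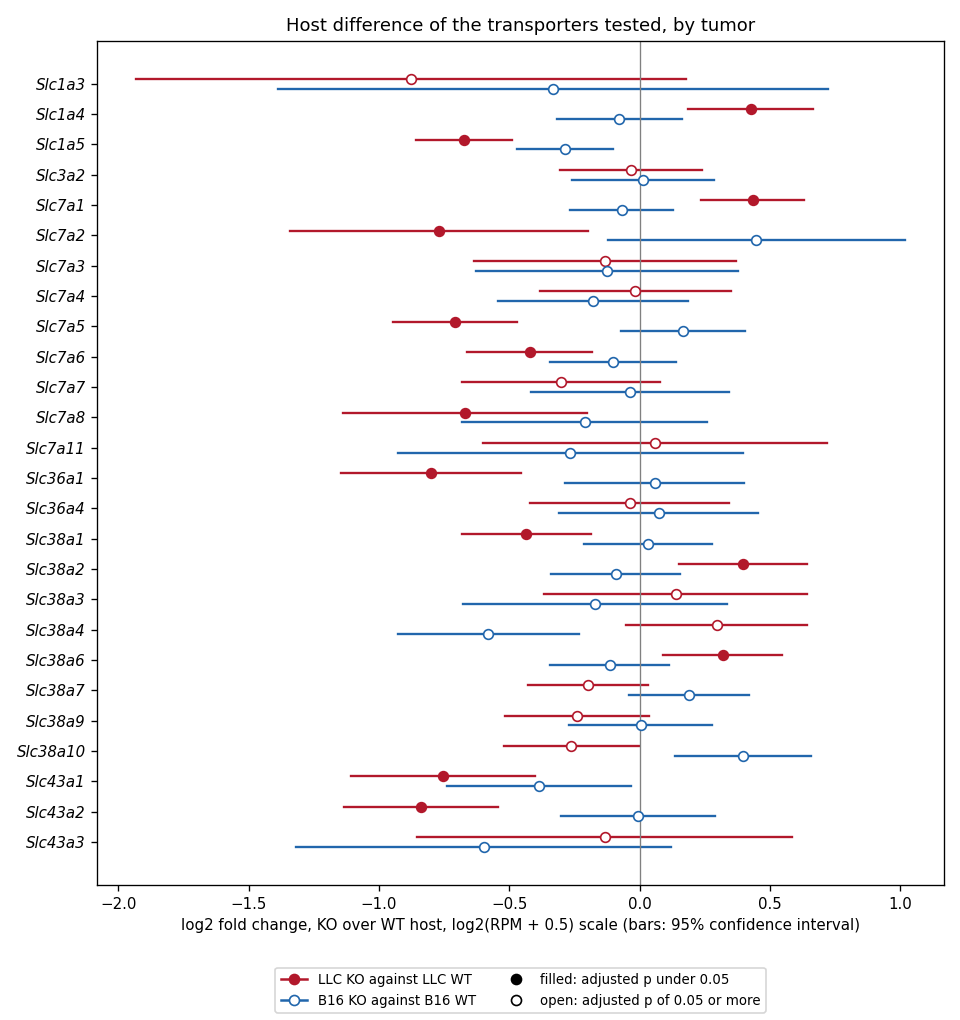
Log2 fold change of KO over WT hosts for the 26 carriers tested, in LLC (upper marker of each row) and in B16 (lower marker), on the log2(RPM + 0.5) scale with 95% confidence intervals. Filled markers have an adjusted p under 0.05: 13 in LLC, from -0.84 (*Slc43a2*) to 0.43 (*Slc7a1*), and 0 in B16.

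The host effect itself differed between the tumors for 6 carriers, 2 with a higher and 4 with a lower effect in LLC than in B16. Over all genes tested, 8.15% had a higher and 7.05% a lower effect in LLC (limma, adjusted p under 0.05), against 7.69% and 15.4% of the carriers. The largest called difference was that of *Slc38a4*, whose log2 fold change was 0.30 in LLC and -0.58 in B16, neither of them called (difference 0.88, SE 0.21, adjusted p = 0.0346). *Slc38a4* was at 70.6 and 59.65 RPM in LLC KO, against 51.2 and 54.45 RPM in LLC WT. *Slc7a5* was the carrier with the smallest adjusted p, at 369.25 and 362.5 RPM in B16 KO and 357.75 and 297.3 RPM in B16 WT, in contrast to its lower level in LLC KO (difference -0.87, SE 0.14, adjusted p = 0.0132). *Slc7a1* was at 171.7 and 176.95 RPM in B16 KO and at 194.0 and 172.2 RPM in B16 WT (difference 0.50, SE 0.12, adjusted p = 0.0338).

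*Slc36a1* was at 27.85 and 34.85 RPM in B16 KO and at 30.15 and 29.7 RPM in B16 WT, without the lower level seen in LLC KO (difference -0.86, SE 0.21, adjusted p = 0.0352 from limma). The same held for *Slc43a2*, at 67.85 and 80.6 RPM in B16 KO and at 74.1 and 74.45 RPM in B16 WT (difference -0.83, SE 0.18, adjusted p = 0.0258). *Slc38a10*, a less studied member, was at 181.15 and 186.85 RPM in LLC KO and at 195.25 and 249.6 RPM in LLC WT, and its effects of -0.26 in LLC and 0.40 in B16, neither of them called, differed by -0.66 (SE 0.16, adjusted p = 0.0339). Each of these 6 differences lost its call without at least 1 library, with adjusted p of up to 0.0598 for *Slc7a5*, 0.0931 for *Slc43a2* and 0.115 to 0.118 for *Slc7a1*, *Slc36a1*, *Slc38a4* and *Slc38a10*. The count of 6 was 0 without LLC KO pool 1, B16 KO pool 1 or B16 WT pool 2, 1 without LLC KO pool 2 or B16 WT pool 1, 2 without B16 KO pool 2, and 10 without LLC WT pool 1. With scaling by the median of ratios it was 4 higher and 4 lower. The 2 tumors differ in line, in possible day of collection and in the sex-linked transcripts of the LLC KO pools, and the part of each was not tested.

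Genes that work with the carriers were described by 8 lists, for which the values in parentheses are the log2 fold change followed by the adjusted p. Unlike those of the carriers, the calls of these lists were not followed under the alternatives tried. In LLC KO, 9 of 18 tested amino acid carriers of other solute carrier families were lower and 0 higher than in LLC WT (median log2 fold change -0.32, against -0.09 for all genes), beside 23.1% lower and 15.1% higher among all genes tested. The 4 with the smallest adjusted p were the mitochondrial glutamate carrier *Slc25a22* (21.85 and 24.65 RPM in LLC KO, against 45.25 and 37.2 RPM in LLC WT, log2 fold change -0.81, adjusted p = 0.00661 from limma), the aspartate and glutamate exchanger *Slc25a13* (-0.72, 0.00690), *Slc25a44*, which brings branched chain amino acids into mitochondria (-0.34, 0.0130), and the neuronal carrier *Slc6a17* (-0.88, 0.0146), which was at 0.1 to 0.95 RPM in LLC and at 176.4 to 295.15 RPM in B16. Of the 20 cytosolic aminoacyl-tRNA synthetases, which load amino acids onto tRNA, 11 were lower and 1 was higher (median -0.34), beside the same 23.1% and 15.1%. *Vars* was at 156.9 RPM in both LLC KO pools, against 271.65 and 243.75 RPM in LLC WT (-0.71, adjusted p = 0.00197). *Gars* (-0.66, 0.00231) and *Lars* (-0.48, 0.00499) were lower too, and *Dars* was higher (0.41, 0.00491).

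Of 25 genes of the list of *Atf4* and its response genes, 7 were higher and 5 lower in LLC KO (median -0.01), beside 15.1% higher and 23.1% lower among all genes tested. *Ddit4*, an inhibitor of mTORC1 that is also induced by hypoxia, was at 116.55 and 101.85 RPM in LLC KO, against 66.05 and 59.65 RPM in LLC WT (log2 fold change 0.79, adjusted p = 0.00120 from limma). *Vldlr*, a lipoprotein receptor, was higher as well (0.82, 0.00510). *Shmt2*, a mitochondrial enzyme of serine and glycine metabolism, was at 92.6 and 80.5 RPM in LLC KO, against 167.2 and 141.95 RPM in LLC WT (-0.83, 0.00227), and *Aldh18a1*, an enzyme of proline synthesis, fell with it (-0.49, 0.00551). Of 28 genes of mTORC1 and its amino acid sensing, 5 were higher and 7 lower (median -0.09), which is near the shares and the median of all genes (15.1%, 23.1% and -0.09). *Fnip1*, a partner of folliculin, rose (0.83, 0.00136), while folliculin itself, *Flcn* (-0.47, 0.00312), the leucine sensor family member *Sesn3* (-1.02, 0.00475) and the mTORC1 inhibitor *Tsc2* (-0.60, 0.00484) fell.

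Of 15 genes of the list of glutathione synthesis and use, for which cystine is a source, 6 were lower and 0 higher (median -0.40), beside 23.1% lower and 15.1% higher among all genes tested. The list also held antioxidant genes that neither make nor use glutathione, among them *Hmox1* and *Txnrd1*, both lower. *Gclm*, the modifier subunit of the rate-limiting enzyme of glutathione synthesis, was at 34.65 and 38.25 RPM in LLC KO, against 61.6 and 53.1 RPM in LLC WT (log2 fold change -0.64, adjusted p = 0.00468 from limma). *Gss* (-0.49, 0.0252), *Gpx1* (-0.55, 0.0273) and the heme-degrading *Hmox1* (-0.51, 0.0304) were lower too. Beside the same shares, in arginine metabolism 1 of 11 was higher and 3 lower (median -0.16), among them the arginine-synthesizing *Ass1* (-1.03, 0.00659), the endothelial *Nos3* (-1.85, 0.00874) and the spermidine synthase *Srm* (-0.42, 0.0187), with the spermine synthase *Sms* as the higher one (0.41, 0.0352). *Nos3* was at 0.15 and 0.95 RPM in LLC KO, against 3.6 and 2.5 RPM in LLC WT, and is itself expressed by endothelial cells, whose markers were lower in the same pools. In glutamine and glutamate metabolism 2 of 11 were higher and 1 lower (median -0.02, beside the same shares), with *Gfpt1* (0.42, 0.00551) and *Gpt2* (0.66, 0.0348) higher, *Got2* lower (-0.31, 0.0241) and *Glul*, glutamine synthetase, not called (-0.37, 0.0561). In the list of branched chain amino acid and tryptophan breakdown, 1 of 7 was higher and 3 were lower, with a median of -0.23, beside the same shares. The higher one was *Tdo2* (1.56, 0.00257), at 1.85 and 1.65 RPM in LLC KO, against 0.4 and 0.15 RPM in LLC WT. The lower ones were *Bckdhb* (-0.71, 0.0104), *Bcat1* (-0.40, 0.0135) and *Bckdk* (-0.33, 0.00941), a kinase that inhibits the breakdown of branched chain amino acids. In B16, 0 genes of the 8 lists were called between hosts.

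**Figure D4:**
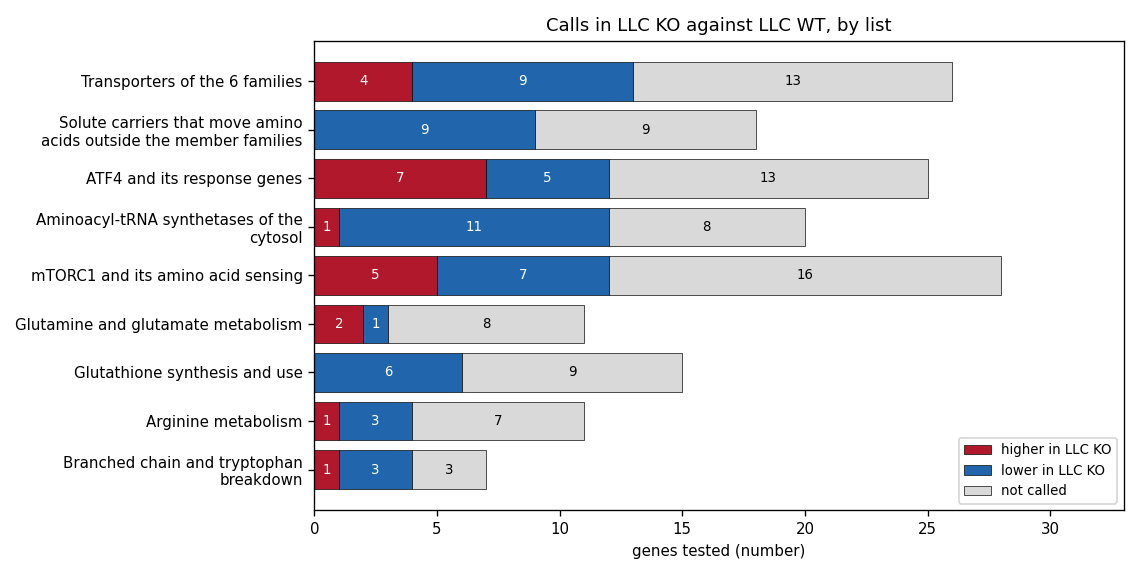
Number of genes tested per list on the horizontal axis, divided into genes higher in LLC KO, lower in LLC KO and not called against LLC WT (limma, adjusted p under 0.05). Of the transporters 4 were higher and 9 lower, of the aminoacyl-tRNA synthetases 1 and 11, and of the glutathione list 0 and 6.

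Between LLC and B16, averaged over the hosts, 7 carriers were higher in LLC and 8 lower, or 26.9% and 30.8% of the 26. Over all genes tested, 39.9% were higher and 37.7% lower in LLC (limma, adjusted p under 0.05). The widest gap was that of *Slc38a4*, a neutral amino acid carrier known from liver and placenta. Its mean was 59.0 ± 8.5 RPM in LLC and 2.49 ± 0.723 RPM in B16 (SD, n = 4 pools each, KO and WT hosts together). This is 23.7-fold and a log2 fold change of 4.34 (SE 0.11, adjusted p = 2.26e-08). *Slc38a3* (SNAT3), a system N glutamine carrier known from liver, kidney and brain, was at 0.05, 0.05, 0 and 0 RPM in LLC and at 1.2 to 2.05 RPM in B16. With the estimated depths this is about 2 reads in LLC against 151 in B16, a ratio of 0.014 (95% counting interval 0.00168 to 0.0514), while its fitted log2 fold change of -1.90 (adjusted p = 1.14e-05) depended on the pseudocount, with -4.41 at 0.05 RPM and -0.78 at 2 RPM.

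Carriers of the same transport system differed in opposite directions between LLC and B16. Each SD below is over the KO and WT pools of a tumor together and so includes host differences, such as that of *Slc7a5* in LLC. *Slc7a5* averaged 115 ± 33 RPM in LLC and 347 ± 33.3 RPM in B16 (SD, n = 4 each), or 0.331-fold (log2 fold change -1.63, SE 0.07, adjusted p = 4.17e-07 from limma), while *Slc7a8* averaged 54.9 ± 16 RPM in LLC and 22.4 ± 4.34 RPM in B16 (1.25, SE 0.14, adjusted p = 8.4e-05). *Slc38a1* averaged 78.1 ± 15.1 RPM in LLC and 201 ± 11.4 RPM in B16 (-1.38, SE 0.08, adjusted p = 1.28e-06), and *Slc38a2* averaged 226 ± 38.0 RPM in LLC and 124 ± 9.53 RPM in B16 (0.85, SE 0.08, adjusted p = 1.9e-05). *Slc1a4* averaged 72.6 ± 14.0 RPM in LLC and 24.4 ± 0.797 RPM in B16, a log2 fold change of 1.53 (adjusted p = 6.01e-07). The arginine carrier *Slc7a1* averaged 71.6 ± 12.8 RPM in LLC and 179 ± 10.5 RPM in B16 (-1.33, adjusted p = 4.56e-07), and the low *Slc7a3* averaged 1.25 ± 0.227 RPM in LLC and 0.463 ± 0.111 RPM in B16 (0.86, adjusted p = 0.00107). The nucleobase carrier *Slc43a3* averaged 68.4 ± 13.6 RPM in LLC and 18.6 ± 6.26 RPM in B16 (1.90, adjusted p = 8.79e-05). These 10 carriers, chosen as those with the largest called fold changes, all stayed called without any single library.

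**Figure D5:**
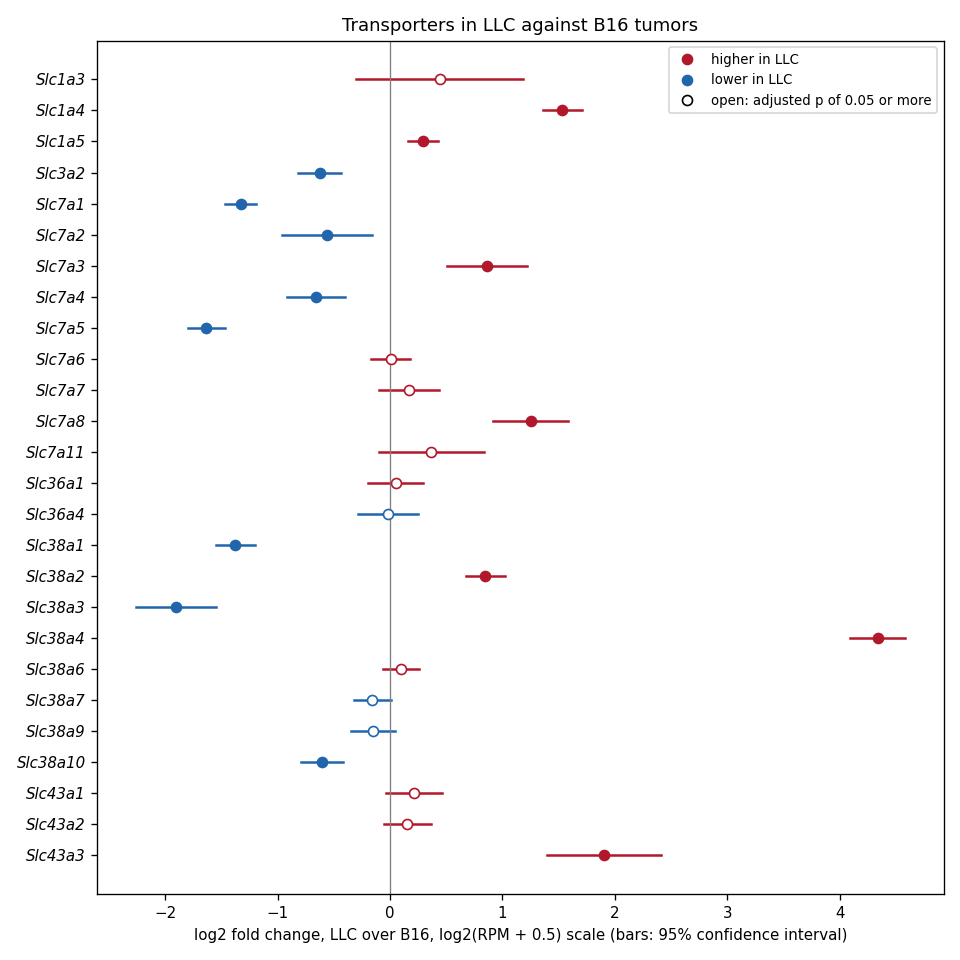
Log2 fold change of LLC over B16 for the 26 carriers tested, averaged over the hosts, on the log2(RPM + 0.5) scale with 95% confidence intervals. Filled markers have an adjusted p under 0.05: 7 to the right of 0, up to 4.34 in *Slc38a4*, and 8 to the left, down to -1.90 in *Slc38a3*.

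The other called carriers had smaller differences. *Slc3a2* was lower in LLC (-0.63, adjusted p = 0.000197 from limma), as were *Slc38a10* (-0.60, 0.000185), *Slc7a4* (-0.66, 0.000822) and *Slc7a2* (-0.56, 0.0180), and *Slc1a5* was higher (0.29, 0.00163). The differences of *Slc7a2* and *Slc1a5* were not alike in both hosts. *Slc7a2* overlapped between LLC WT (5.9 and 7.5 RPM) and B16 WT (5.6 and 7.35 RPM) and was lower in LLC KO than in B16 KO. *Slc1a5* overlapped between LLC KO (84.95 and 91.15 RPM) and B16 KO (87.15 and 77.2 RPM) and was higher in LLC WT than in B16 WT. The 11 carriers that were not called had log2 fold changes of -0.16 (*Slc38a7*) to 0.44 (*Slc1a3*). Fibroblast markers were also higher in LLC (17821 to 35520 RPM) than in B16 (1050 to 1929 RPM), as were macrophage markers (2850 to 6714 RPM against 908 to 1400 RPM), and the part of these cells in the differences between tumors was not tested.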

How the data were processed

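Tumors of LLC and B16-F0 cells from *Ccrl2* KO and WT hosts were profiled by RNA sequencing, 2 pools of 3 tumors per group. The authors trimmed paired reads of 100 bases with Trimmomatic, used STAR for alignment to the GRCm38.p4 (mm10) build, counted reads per gene with HTSeq and compared groups with EdgeR on Degust. Versions and the use of strand in counting are not given in the sources used here. The deposited values are a score, which the authors made by scaling each library to 20 M reads and rounding, and were divided by 20 to give RPM. Since these are not counts, limma 3.58.1 (R 4.3.3, Python 3.11.15) replaced the count test.

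A gene was tested when 2 or more of the 8 libraries reached 1 RPM (14706 of 47729). A single model of the 4 groups was fitted to log2(RPM + 0.5) with variance moderated along the mean level (residual degrees of freedom 4, prior 3.685). KO was set against WT within LLC and within B16, these effects were set against each other, and LLC was set against B16. The call required an adjusted p (Benjamini-Hochberg, over all genes tested) under 0.05. Fold changes are on the log2(RPM + 0.5) scale, which understates those of low genes. The fit was run on simulated data with the same extra spread for all genes and changed genes in LLC KO only. Since these settings differ from the data, the run checks the code and not the calls given here.

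Depth was estimated from the spacing of low values, with that of LLC KO pool 1 the least certain. Intervals and floors cover counting error only. Exon length and overlap came from the mouse GENCODE annotation, release 21, and promoters from RefSeq. The transporters and lists were chosen with earlier results of these data known. Values per library were given for carriers called between hosts or in the difference, and for the 10 with the largest called fold change between tumors, and up to 4 genes per list by adjusted p. The alternatives tried were a pseudocount of 0.05 or 2 RPM, a filter of 5 RPM or none, 2 other scalings, each tumor alone, a replicate block, robust moderation, and libraries left out.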

Additional observations from a re-analysis of the deposited data

Results flagged for a closer look

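The effect of the host differed between LLC and B16 for 6 carriers, by the interaction term of the limma fit (adjusted p under 0.05 over all genes tested). Over all genes tested, 8.15% had a higher and 7.05% a lower effect in LLC. On the log2 scale, the effect of the KO host in LLC minus that in B16 was 0.8761 for *Slc38a4* and 0.502 for *Slc7a1*, where LLC had the higher effect. It was -0.8744 for *Slc7a5*, -0.8582 for *Slc36a1*, -0.8328 for *Slc43a2* and -0.6593 for *Slc38a10*, where LLC had the lower effect. The effects within LLC were called for *Slc7a1*, *Slc7a5*, *Slc36a1* and *Slc43a2*, and no effect within B16 was called. None of the 6 differences kept its call under every alternative tried.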

How the results depend on the processing

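For the named carriers, 810 values were computed under alternatives, of which 720 kept their side of the threshold, 89 lost a call, 1 gained one and 0 called values turned sign. The difference and LLC against B16 were followed only for called carriers, so that no gain could appear there. Of the 720, 270 came from B16 KO against B16 WT, where nothing was called, and 168 from LLC against B16. For the difference, 56 of 102 values kept their call. *Slc1a5*, *Slc7a5*, *Slc36a1* and *Slc43a2* were called between LLC KO and LLC WT under every alternative tried. The count of carriers called there was 13, ranged between 6 and 13 with single libraries left out, and was 7 without LLC WT pool 2 and B16 WT pool 1 together, a choice made after the data were seen. The count for the difference of the effects was 6, ranged between 0 and 10 with single libraries left out, and was 2 without a filter and 1 without both pools. Between B16 KO and B16 WT no carrier was called under any alternative, and 11 genes in all were called without B16 WT pool 2. Between LLC and B16 the count was 15, and 14 to 17 with single libraries left out. Over all genes, 5628 were called between LLC KO and LLC WT, against 3292 with LLC fitted alone, 2613 without LLC KO pool 1 and 3071 without LLC KO pool 2. For the difference, 2236 genes were called, against 795 without a filter, 383 without both pools, and 318 to 3616 with single libraries left out. Pools of the same number did not deviate together (correlation -0.03 in LLC and 0.06 in B16), and with the number as a replicate block the counts of carriers called were 13, 0, 5 and 15 for the 4 comparisons, with the differences of *Slc7a1* (adjusted p = 0.0604), *Slc36a1* (0.0566) and *Slc38a4* (0.0635) no longer called. A library left out leaves a lone pool, which is taken to vary like the other groups. The causes of these changes were not tested. At the estimated depths, carriers below 0.1705 RPM could not be measured.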

Other observations

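Between LLC and B16, the lists of genes that work with the carriers also differed, beside 39.9% of all genes higher and 37.7% lower in LLC (limma, adjusted p under 0.05). The counts of the lists were not followed under the alternatives tried. Of 28 genes of mTORC1 and its sensing, 7 were higher and 15 lower in LLC, with a median log2 fold change of -0.19, and of 20 aminoacyl-tRNA synthetases 4 were higher and 10 lower (median -0.19). Of 18 other amino acid carriers, 4 were higher and 10 lower (median -0.25). The *Atf4* list had 11 of 25 higher and 9 lower (median 0.11), and arginine metabolism 6 of 11 higher and 3 lower (median 0.30). The host effect differed between the tumors for 7 of the 20 synthetases, with a lower effect in LLC for all 7, and for 0 of the 15 genes of the glutathione list, beside 8.15% of all genes with a higher and 7.05% with a lower effect in LLC.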
